A study of Mus musculus with 2 samples.

Results

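Orosomucoids, serum amyloid A proteins, haptoglobin and the pentraxins are plasma proteins that the liver secretes in the acute-phase response to infection or tissue injury. Their genes are 10 of the 18194 named genes on the array, and they were chosen by name as 3 orosomucoid genes (Orm1, Orm2 and Orm3), 4 serum amyloid A genes (Saa1, Saa2, Saa3 and Saa4), haptoglobin (Hp) and the 2 pentraxin genes Crp and Apcs. All 10 were found, on 12 probe sets, each a set of short oligonucleotides complementary to a transcript. The study set livers of fatty liver Shionogi (FLS) mice, its model of nonalcoholic steatohepatitis (NASH), against livers of DS mice, its model of simple steatosis. FLS and DS are inbred strains from different lines of an outbred ddN colony, so they differ in genotype as well as in liver disease, and the mice of both strains were kept on a standard pellet diet with no treatment named. For each strain, liver RNA of 3 mice at 19 weeks of age was pooled and hybridized to 1 Affymetrix Mouse Genome 430 2.0 array. The hepatocyte marker albumin (Alb) had the highest signal intensity of all probe sets in both pools, at 32018 in FLS livers and 30942 in DS livers. With 1 array per strain there is no replicate, so no difference below was tested and no p-value is given.

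In the acute-phase response, macrophages release interleukin-6, interleukin-1 and tumour necrosis factor, and hepatocytes answer through the transcription factors STAT3, C/EBP and NF-kB with more messenger RNA for these secreted proteins. Orosomucoids bind drugs and lipids in plasma, serum amyloid A proteins travel on high-density lipoprotein, haptoglobin captures free haemoglobin, and pentraxins bind phosphocholine and other ligands on microbes and dying cells. In mice, serum amyloid P component (Apcs) responds strongly to inflammation and C-reactive protein (Crp) only weakly.

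Messenger RNA of the orosomucoids Orm2 and Orm3 and of Saa3 was at least 2-fold higher in FLS livers, Apcs and Orm1 were higher by less than 2-fold, Hp and Crp were at almost equal signals, and Saa1, Saa2 and Saa4 were lower. The 3 genes at or above 2-fold stand against 1.89% of all 9160 genes that had a signal of at least 200 in at least 1 pool, and 173 genes passed that limit in all. Orm2 and Saa3 were already in the study's own list of genes with larger differences on these same arrays. The members were chosen with earlier results known, so the count only describes them and is no independent support. No member was at least 2-fold lower, as 1.30% of the genes were, 119 in number. Both shares count genes by their measured ratios, also where 1 of the 2 signals lay below 200. The median log2 FLS/DS ratio of the 10 members was 0.31, and that of the 9160 genes was 0.03 with quartiles of -0.15 and 0.22. The members did not move as 1 group, since their log2 ratios ran from -0.38 to 2.81. The only spread these arrays give is that between probe sets of 1 gene, a pooled SD of 0.22 on the log2 scale over 2790 genes, and it says nothing of the spread between mice.

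**Figure D1:**
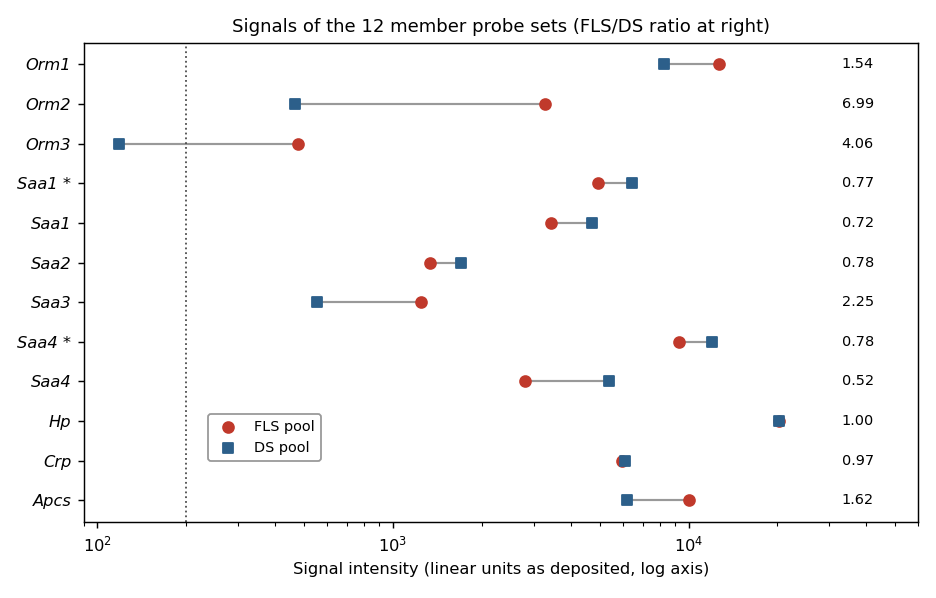
Signal intensity (log axis) of the 12 probe sets of the 10 genes for FLS (circles) and DS (squares), each 1 array of pooled RNA, with the FLS/DS ratio at the right. The asterisk marks the probe set that gives the gene its value where there are 2, and the dotted line marks a signal of 200. Orm2 has the widest gap at a ratio of 6.99, the circles of Orm1, Orm3, Saa3 and Apcs also lie to the right of their squares, and all probe sets of Saa1, Saa2 and Saa4 have them to the left, while the symbols of Hp coincide.

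Orm2 had a signal intensity of 3262 in FLS livers and 467 in DS livers, a ratio of 6.99. Only 14 of the 9160 genes, or 0.153%, had a higher ratio. Orm3 had a signal of 479 in FLS livers and 118 in DS livers. Its DS signal lay below 200, near the median of all probe sets on that array (125), and so its measured ratio of 4.06 is given as a bound of at least 2.39-fold, the FLS signal over 200. Orm1, read from a probe set with high signals, was at 12678 in FLS livers and 8236 in DS livers, a ratio of 1.54 that 4.85% of the genes exceeded. All 3 orosomucoids were thus higher in FLS livers, but unequally. The log2 ratio of Orm2 exceeded that of Orm1 by 2.18, which is 4.54-fold, and 10.1 times the SD between probe sets of 1 gene. That SD is one of single ratios, and a difference of 2 ratios varies by more. Here and below, multiples for differences are therefore not on the scale of those for single ratios, and neither is a test statistic. Signals of different probe sets do not give the relative amounts of the 3 transcripts. Each orosomucoid gene has a single probe set here, and no probe sequences were used, so how far the near relatives share signal is not known. Whether sequence differences between the strains alter the binding to the probes was not tested, for these or the other members.

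The promoter windows of Orm2 and Orm3 are shown because these genes had the highest ratios of the family. They are RefSeq sequences of build GRCm38.p6 from the C57BL/6J strain, not of FLS or DS mice, and run from 250 bases before to 50 after the annotated start, 5′ to 3′. The Orm2 window lies at chr4:63362199-63362498 on the plus strand and the Orm3 window at chr4:63355908-63356207 on the plus strand, and capitals mark matches to the searched motifs.
Orm2: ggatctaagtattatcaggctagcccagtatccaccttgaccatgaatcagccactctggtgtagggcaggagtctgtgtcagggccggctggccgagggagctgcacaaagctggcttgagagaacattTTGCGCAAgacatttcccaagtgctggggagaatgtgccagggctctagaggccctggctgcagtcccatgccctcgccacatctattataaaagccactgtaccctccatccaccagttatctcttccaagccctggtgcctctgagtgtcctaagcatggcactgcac
Orm3: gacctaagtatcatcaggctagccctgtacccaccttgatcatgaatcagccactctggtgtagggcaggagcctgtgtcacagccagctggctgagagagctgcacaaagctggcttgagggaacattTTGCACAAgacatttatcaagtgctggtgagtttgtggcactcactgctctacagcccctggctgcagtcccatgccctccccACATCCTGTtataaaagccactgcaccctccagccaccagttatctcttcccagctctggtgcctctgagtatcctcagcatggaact
The windows were identical at 264 of 295 aligned bases (89.5%). Both held the C/EBP motif TTGCNNAA, as TTGCGCAA from -120 to -113 in Orm2 and as TTGCACAA from -121 to -114 in Orm3, counted from the start. Orm3 also held the glucocorticoid receptor motif ACANNNTGT from -38 to -30.

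Saa3, which in mice is expressed by macrophages and adipocytes as well as by liver, was the single serum amyloid A gene with a higher signal in FLS livers. It had 1242 in FLS livers and 553 in DS livers, a ratio of 2.25 that 1.40% of the genes exceeded. Saa1 and Saa2, which encode the acute-phase forms carried on high-density lipoprotein, went the other way. Saa1 had a signal of 4951 in FLS livers and 6464 in DS livers, a ratio of 0.766, and its second probe set had 3413 and 4710, a ratio of 0.725. Saa2 had 1331 in FLS livers and 1705 in DS livers, a ratio of 0.780. The probe set that gives Saa1 its value carries an accession that RefSeq assigns to Saa2, and the name endings of this probe set and of the single one of Saa2 mark probes shared between transcripts. The signals of Saa1 and Saa2 are therefore not independent, and the second Saa1 probe set is the one with its own accession.

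Saa4, the constitutive serum amyloid A of liver, had a signal of 9322 in FLS livers and 12018 in DS livers, a ratio of 0.776. Its second probe set had 2794 in FLS livers and 5368 in DS livers, a ratio of 0.520, so the size of the Saa4 difference depends on the probe set. All 5 probe sets of Saa1, Saa2 and Saa4 had a lower signal in FLS livers, with ratios from 0.520 to 0.780. The gene values of Saa1, Saa2 and Saa4, at log2 ratios of -0.38, -0.36 and -0.37, were 1.78, 1.65 and 1.69 times the SD between probe sets of 1 gene in size. Their ratios were exceeded by those of 92.2%, 91.1% and 91.5% of the genes. The gap between Saa3 and these 3 genes was wider, at 1.52 to 1.55 on the log2 scale. That is 7.05 to 7.17 times the SD, as multiples for differences of 2 ratios.

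The windows of Saa3 and Saa1 are shown as those of a gene that was higher and a gene that was lower in FLS livers. The Saa3 window lies at chr7:46715627-46715926 and the Saa1 window at chr7:46742931-46743230, both on the minus strand of GRCm38.p6 and both printed in the direction of the gene, with motif matches in capitals.
Saa3: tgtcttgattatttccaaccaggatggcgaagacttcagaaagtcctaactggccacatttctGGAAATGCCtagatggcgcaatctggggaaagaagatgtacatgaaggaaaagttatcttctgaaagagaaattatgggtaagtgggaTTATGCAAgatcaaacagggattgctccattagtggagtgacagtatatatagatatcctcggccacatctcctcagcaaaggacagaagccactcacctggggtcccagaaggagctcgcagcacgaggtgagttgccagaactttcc
Saa1: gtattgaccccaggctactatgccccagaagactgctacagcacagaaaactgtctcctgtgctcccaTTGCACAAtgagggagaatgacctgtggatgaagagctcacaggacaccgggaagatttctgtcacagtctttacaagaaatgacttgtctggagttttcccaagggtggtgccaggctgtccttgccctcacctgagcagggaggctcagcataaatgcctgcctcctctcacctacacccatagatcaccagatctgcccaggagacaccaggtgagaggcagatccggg
Both held the C/EBP motif, on the opposite strand from -99 to -92 in Saa3 (printed as TTATGCAA) and on the printed strand from -182 to -175 in Saa1. Saa3 also held the NF-kB motif GGNNNTTCC, again on the opposite strand, from -187 to -179. The windows of Saa1 and Saa2 were identical at 287 of 299 aligned bases (96.0%), and Saa2 had the same C/EBP letters 1 base further out, from -183 to -176.

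Over the 8 members with a window, which are all but Orm1 and Hp, the C/EBP motif was found in 6 (Orm2, Orm3, Saa1, Saa2, Saa3 and Saa4), against 10.8% of 32851 windows in the same table. The NF-kB motif was found in 1 (Saa3) against 18.5%, the STAT motif TTCNNNGAA in 1 (Apcs) against 8.30%, and the glucocorticoid receptor motif in 1 (Orm3) against 6.85%. Each motif was searched on both strands, and no matches to different motifs overlapped in these windows. The windows of Orm2 and Orm3 (89.5% identical) and of Saa1 and Saa2 (96.0% identical) are near copies. The 6 windows with the C/EBP motif are therefore not separate observations, and the motifs were chosen with earlier results known. No enrichment can be read from these shares. The C/EBP letters stood in genes on both sides of a ratio of 1 and were absent from the windows of Apcs and Crp. A match describes the letters only.

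Apcs, the gene of serum amyloid P component, had a signal of 10076 in FLS livers and 6211 in DS livers, a ratio of 1.62 that 3.92% of the genes exceeded. Crp was at 5942 in FLS livers and 6096 in DS livers, a ratio of 0.975. The log2 ratios of these neighbouring pentraxin genes differed by 0.73, or 3.40 times the SD between probe sets of 1 gene. Hp, the gene of haptoglobin, was at 20265 in FLS livers and 20191 in DS livers, a ratio of 1.00. Hp and Crp were thus the members with measured ratios closest to 1. The highest signals on the arrays were 32018 in FLS livers and 30942 in DS livers. Whether signals as high as those of Hp still follow the amount of RNA was not tested.

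**Figure D2:**
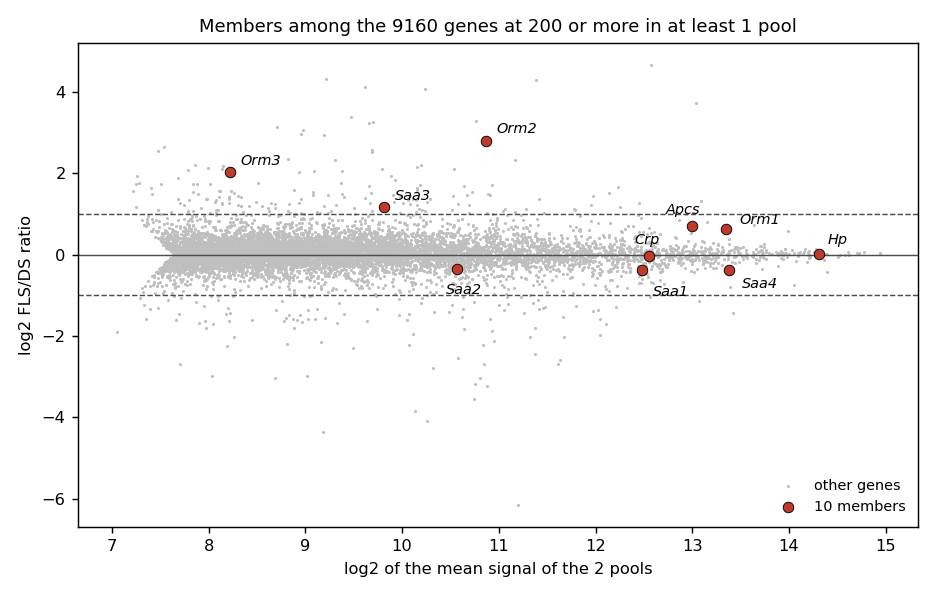
Log2 FLS/DS ratio against the log2 mean signal of both pools for the 9160 genes with a signal of at least 200 in at least 1 pool (grey) and the 10 members (red). The dashed lines mark a 2-fold difference. Orm2, Orm3 and Saa3 lie above the upper line, Apcs and Orm1 between the lines above the bulk of the genes, and Saa1, Saa2 and Saa4 between the lines below a ratio of 1.

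The members lay mostly at high signals, and the share of genes at least 2-fold different varied with the mean signal. Of 481 genes with a mean signal of at least 5000, 1.66% were at least 2-fold different in either direction, and 6 members fell in this range, Orm1, Saa1, Saa4, Hp, Crp and Apcs. Of 2226 genes between 1000 and 5000, where Orm2 and Saa2 fell, 4.90% were. Of 6453 genes below 1000, where Orm3 and Saa3 fell, 2.71% were. None of the 6 members at high signal reached 2-fold, and 3 of the 4 below did.

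Of 21 other positive acute-phase genes listed, 19 were found and all of these had a signal of at least 200, with 1 at least 2-fold higher, 1 at least 2-fold lower and 17 between. The higher one was Lcn2 (lipocalin-2, an iron-siderophore binding protein), with signals of 1440 in FLS livers and 332 in DS livers. The lower one was Lbp (lipopolysaccharide binding protein), at 1662 and 4034. Fgl1, a fibrinogen-like hepatokine, had 3174 in FLS livers and 1621 in DS livers (ratio 1.96), and Hamp, which encodes the iron hormone hepcidin, had 15898 and 9555 (ratio 1.66). The fibrinogen chains Fga, Fgb and Fgg had ratios of 1.04, 1.07 and 1.05, and Serpina3n, a protease inhibitor induced by interleukin-6 in mouse liver, had 0.998. The median log2 ratio of these 19 genes was 0.06.

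Genes of the negative acute-phase proteins, which fall in inflammation, had a median log2 ratio of 0.05, against 0.03 for all 9160 genes. None of the 10 found was at least 2-fold different. Of all 9160 genes, 1.89% were at least 2-fold higher and 1.30% lower. A count of 0 in this list, or in the short signalling lists below, is therefore near the overall share. Serpina6, which encodes the corticosteroid binding globulin, had a signal of 4257 in FLS livers and 6915 in DS livers (ratio 0.616), and the coagulation factor gene F12 had 4518 and 3371 (ratio 1.34). Apom and Pon1, genes of proteins on high-density lipoprotein, had ratios of 1.18 and 1.13. Alb had a ratio of 1.03.

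**Figure D3:**
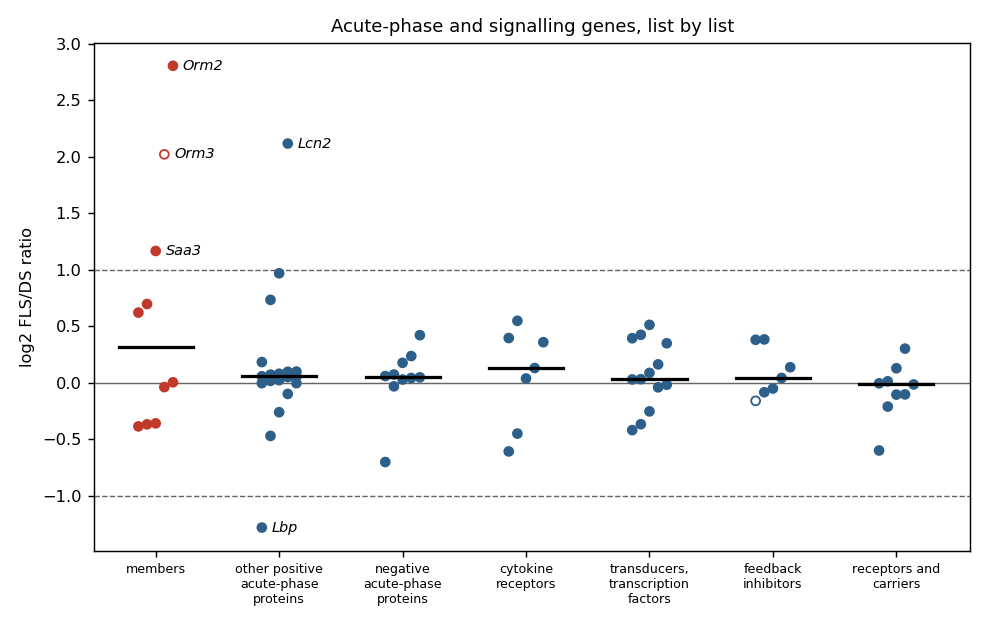
Log2 FLS/DS ratio of every gene with a signal of at least 200 in at least 1 pool in 7 lists, with the list median as a bar. Open circles are ratios with 1 signal below 200, and the dashed lines mark a 2-fold difference. Orm2, Orm3, Saa3 and Lcn2 lie above the upper line and Lbp below the lower one, while no receptor, transducer, transcription factor or inhibitor crosses either.

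Of 9 inducing cytokine genes found, 8 had signals below 200 in both pools. Il6 was at 54.1 in FLS livers and 56.7 in DS livers and Il1b at 143 and 187, so no ratio is given for them. Ctf1 (cardiotrophin-1) was the single gene above the limit, at 293 and 298. Of the cytokine receptors, 7 of 9 had a signal of at least 200 and none differed by 2-fold. Among them, the leukaemia inhibitory factor receptor Lifr had a ratio of 0.657 and the interleukin-1 receptor accessory protein Il1rap of 0.733, while Il10rb had 1.46 and the tumour necrosis factor receptor Tnfrsf1a 1.32.

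Of 13 signal transducers and transcription factors found, none differed by 2-fold and the median log2 ratio was 0.03. Stat3, the transducer of interleukin-6, had a signal of 1274 in FLS livers and 999 in DS livers, a ratio of 1.28. The C/EBP genes that inflammation induces in liver had lower signals in FLS livers, Cebpb with 3415 and 4561 (ratio 0.749) and Cebpd with 619 and 797 (ratio 0.776), while Cebpa had a ratio of 1.32. Tyk2, a Janus kinase, had a ratio of 1.43 and the NF-kB subunit Rela of 1.34.

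None of the 7 feedback inhibitors with a signal of at least 200 differed by 2-fold, and their median log2 ratio was 0.04. Socs3, which STAT3 induces and which in turn limits it, had a signal of 422 in FLS livers and 447 in DS livers, a ratio of 0.944. Sigirr, a brake on interleukin-1 signalling, and the glucocorticoid-induced Tsc22d3 had ratios of 1.31 and 1.30. Fkbp5, another glucocorticoid-induced gene, had 1.10, and Tnfaip3 was at 199 and 222. Of 9 measured genes of receptors and carriers of the secreted proteins, none differed by 2-fold. Cd163, the macrophage receptor of haptoglobin bound to haemoglobin, had a signal of 247 in FLS livers and 373 in DS livers (ratio 0.661), Lrp1 had a ratio of 1.23, the Fc receptor Fcgr2b of 0.865 and the fatty acid and serum amyloid A receptor Cd36 of 1.09.

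Since whole liver was used, more cells of a type and more RNA per cell cannot be told apart. Hepatocyte markers had a median log2 ratio of 0.04 over 10 genes, from Asgr1 (ratio 0.867) to Ass1 (ratio 1.35). Ass1 was read from a probe set with the lowest signals of this list, at 607 in FLS livers and 449 in DS livers. The hepatocyte markers had a summed signal of 163783 in FLS livers and 159694 in DS livers. Macrophage and Kupffer cell markers had a median of -0.33 over 12 genes, 9 of which had the lower signal in FLS livers, and their summed signal was 7745 in FLS livers and 9115 in DS livers. Vsig4 had a ratio of 0.554 and Timd4 was at 115 and 203. The 3 markers with the higher signal in FLS livers were Lyz2 at a ratio of 1.43, Cd68 at 236 and 187, and C1qa at a ratio of 1.04. Of 4 adipocyte markers found, Fabp4 was at 327 and 350 and the other 3 were below 200 in both pools, among them the defining markers Adipoq at 60.7 and 63.4 and Lep at 59.6 and 59.0. The adipocyte markers summed to 520 and 561. The part of either cell type in the ratio of Saa3 was not tested.

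Neutrophil markers summed to 1266 in FLS livers and 1380 in DS livers over 9 genes, 6 of them below 200 in both pools. Mpo was at 171 and 213 and Csf3r at 307 and 293. Among T and NK cell markers, Cd4 was at 209 and 231 and Cd3e at 195 and 208, and the B cell gene Ighm was at 550 and 708. Stellate cell markers summed to 11356 and 7929, of which Dcn gave 6550 and 4770. Of 6 measured genes, 4 had the higher signal in FLS livers, and Col3a1 was at a ratio of 2.78. Lrat and Ngfr had the lower signal in FLS livers, at ratios of 0.880 and 0.885. Pdgfrb, at 361 and 179, had a measured ratio of 2.02, but its bound of at least 1.81-fold does not reach 2-fold. The ratios of sinusoidal endothelial markers ran from 0.920 (Ehd3) to 1.34 (Stab2). The cholangiocyte marker Sox9 was at 365 and 140, a bound of at least 1.83-fold, while Epcam was at 182 and 211 and Krt19 and Krt7 were below 200 in both pools. The part of stellate and cholangiocyte markers in the ratios of the members was not tested.

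The members lie in 3 clusters of neighbouring genes and, in the case of Hp, alone. The orosomucoid genes stand on chromosome 4 in the order Orm1, Orm3, Orm2, with a ratio of 1.54 for Orm1, a bound of at least 2.39-fold for Orm3 and a ratio of 6.99 for Orm2. The 3 genes on either side with a signal of at least 200, looked up after the values of the members were known, had ratios from 0.214 to 1.36. The nearest of them on the side of Orm1 is Col27a1, a fibrillar collagen gene, with a signal of 378 in FLS livers and 1770 in DS livers, a ratio of 0.214. Its second probe set had 215 and 1007, a ratio of 0.213. Ambp, the next one out, which encodes another plasma protein of the liver, was at 18880 and 18911.

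The serum amyloid A genes stand on chromosome 7 in the order Saa3, Saa4, Saa1, Saa2, so that Saa3, the one with a higher signal in FLS livers, is at the end of the row. The 6 genes around them had ratios from 0.704 (Saal1) to 1.07 (Ldha). Crp and Apcs are neighbours on chromosome 1 among genes with ratios from 0.269 to 1.18, the lowest being Mndal, an interferon-inducible gene, at 56.1 in FLS livers and 209 in DS livers, a bound of at least 1.04-fold. Around Hp on chromosome 8 the ratios ran from 1.02 to 1.38.

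**Figure D4:**
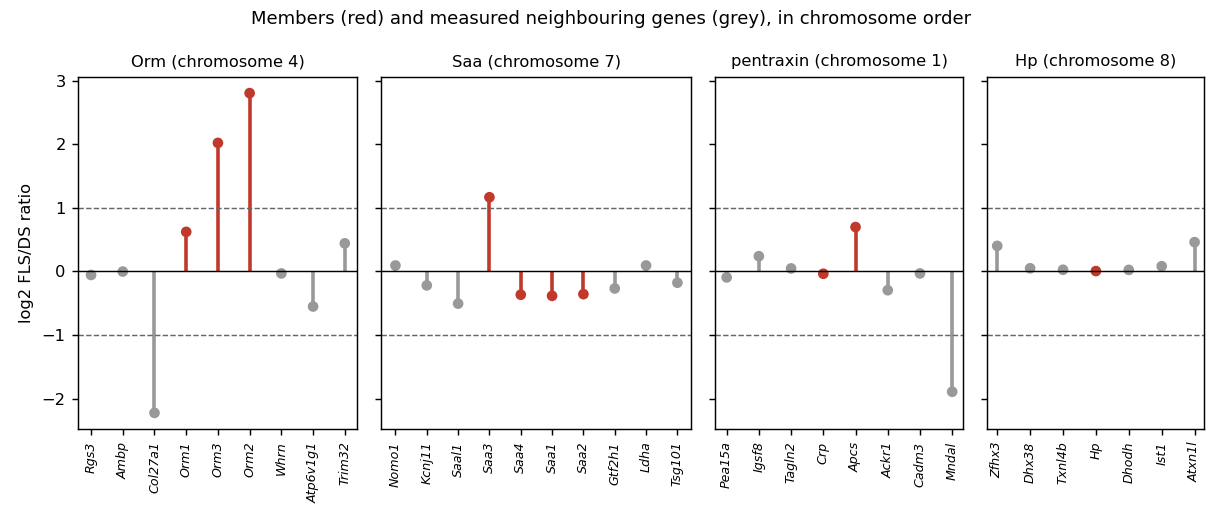
Log2 FLS/DS ratio of the members (red) and of 3 genes on either side with a signal of at least 200 in at least 1 pool (grey), in their order along the chromosome and not to distance. The dashed lines mark a 2-fold difference. The 3 orosomucoids (Orm3 drawn at its measured ratio, a bound) are above 0 beside Col27a1 at a ratio of 0.214, and Saa3 is above 0 beside Saa4, Saa1 and Saa2 below it.

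The scaling applied to the arrays before deposit is unknown here, so the ratios were recomputed under 4 other scalings. The ratio of Orm2 ranged from 6.88 to 8.06 and that of Saa3 from 2.19 to 2.59. That of Apcs ranged from 1.62 to 1.87 and that of Orm1 from 1.53 to 1.77. Saa1, Saa2 and Saa4 were lower in FLS livers under all of them, with ratios from 0.763 to 0.900. The direction of Crp changed, from 0.971 with a loess trend removed to 1.12 after division by the ratio of Actb (beta-actin, to which the qRT-PCR was normalized), and Hp ranged from 1.01 to 1.16.

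**Figure D5:**
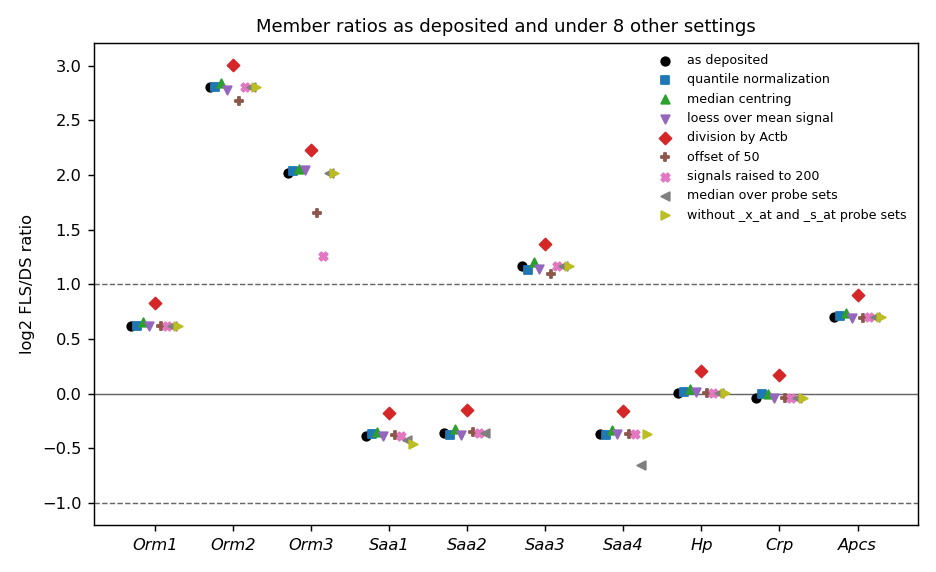
Log2 FLS/DS ratio of the 10 members as deposited and under 8 other settings of scaling, offset, floor and probe set choice. The dashed lines mark a 2-fold difference. Orm2, Orm3 and Saa3 stay above the upper line in each setting, Saa1, Saa2 and Saa4 stay below 0, and the lowest setting of Orm3 is the one with signals raised to 200.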

How the data were processed

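Messenger RNA in 2 liver samples, an FLS and a DS pool of 3 mice each, was measured on Affymetrix Mouse Genome 430 2.0 arrays. The authors summarized the perfect-match probes by the MBEI (PM-only) model and deposited normalized signal intensities on a linear scale for 45101 probe sets. The tool affy is named, with no version, in the submitters' processing notes, and the method of scaling 1 array to the other was not given in the sources used here.

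Probe sets with 1 gene symbol (34958) were used, and those with several (932) or none (9211) were not. Symbols were updated by Entrez number (34754 matched) through RefSeq genes of GRCm38.p6, which left 18194 genes. A gene took the value of whichever probe set had the highest mean of both signals. FLS/DS ratios had no offset. Genes with a signal of at least 200 in at least 1 pool counted as measured (9160). The number of arrays, 2, limits the precision, and pooling removes the spread between mice.

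The members, the 17 gene lists (162 of 182 names found) and the motifs were chosen with earlier results of these data known. Named genes are all members, Actb, Alb, Il6, Il1b, Stat3, Socs3, Cebpb and Cebpd, up to 4 measured genes per list (2 per marker list) with the largest absolute log2 ratio. Fga, Fgb, Fgg, Serpina3n, Lyz2, Cd68, C1qa, Adipoq, Lep, Dcn, Lrat, Ngfr, Krt19, Krt7 and the chromosomal neighbours were named after their values were seen. Promoter windows of 300 bases were aligned globally with free end gaps.

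Alternatives were 4 scalings (quantile, median centring, loess with fraction 0.4, division by Actb), an offset of 50, a floor of 200, the median over probe sets, omission of _x_at and _s_at probe sets, signal limits of 100, 500 and 200 in both pools, and fold limits of 1.5 and 3. The computation of ratios and counts was checked on simulated data with less noise than the SD between probe sets of 1 gene. Changes were planted only in genes with a signal of at least 200 in both pools. The check therefore covers no bounds and gives no error rate for these data. The tools were Python 3.11.15 with biopython 1.88, statsmodels 0.14.6, pandas 2.3.3, matplotlib 3.10.9 and numpy 2.4.6. A comparison of protein sequences was not made.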

Additional observations from a re-analysis of the deposited data

How the results depend on the processing

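A value was taken to move when its log2 changed by at least the SD between probe sets of 1 gene (0.22), and a count when it differed by more than 1.5 times. Of 626 values under an alternative, 609 did not move. Many of them could not, so this number is no measure of robustness. Median centring and division by Actb shift every log2 ratio by less than that SD. The median over probe sets is the gene value itself for the 8 members with 1 probe set, and a floor of 200 changes only Orm3 among the members. No ratio or median of at least 2-fold changed sign. Sign changes in 14 values concerned smaller ones. The log2 ratio of Crp, -0.04 as deposited, was 0.17 after division by Actb, 0.0016 after quantile normalization and 0.0011 after median centring, 7 sign changes were of medians of the lists of inducing cytokines, signal transducers, feedback inhibitors and receptors and carriers, between -0.02 and 0.04 as deposited, and 4 of marker list medians, among them those of T and NK cells (-0.12 as deposited, 0.09 after division by Actb) and of B cells (-0.36 as deposited, 0.07 without _x_at and _s_at probe sets). Of 79 values for single members, 3 moved. The log2 ratio of Orm3, 2.02 as deposited, was 1.66 with an offset of 50 and 1.26 with signals raised to 200, since its DS signal lies below that floor, and that of Saa4 was -0.65 as the median over its probe sets. The members at least 2-fold higher numbered 3 under each scaling, 5 at a fold limit of 1.5, when Orm1 and Apcs joined, and 2 (Orm2 and Saa3) at a signal limit of 500 or of 200 in both pools. At a fold limit of 3 they numbered 2 by the measured ratios of Orm2 and Orm3, but the bound of Orm3, at least 2.39-fold, does not reach that limit. The median log2 ratio of the members was 0.62 without _x_at and _s_at probe sets, which leaves out Saa2, and 0.0053 with a signal of 500 in at least 1 pool or 200 in both, which leaves out Orm3. Other positive acute-phase genes at least 2-fold higher numbered 2 after median centring and after division by Actb, when Fgl1 joined Lcn2. Division by Actb raises every log2 ratio by 0.21 and median centring by 0.04. Of 282 values for marker lists, 8 moved. Stellate cell markers at least 2-fold higher numbered 2 by measured ratios and 1 (Col3a1) with an offset of 50, signals raised to 200, a signal limit of 500 or 200 in both pools. No paired analysis was possible because each strain has 1 array.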

Other observations

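Lbp, the most reduced of the other acute-phase genes, has a second probe set on the array, looked up after its value was seen. It had a signal of 185 in FLS livers and 1500 in DS livers, a bound of at least 7.50-fold lower in FLS livers, against a ratio of 0.412 on the probe set with the higher signal. Hamp, whose hepcidin controls plasma iron, has 2 probe sets with ratios of 1.59 and 1.66, and Fgl1 has 1.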
